A study of Mus musculus with 22 samples.

Results

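Of the 7321 ATRX peaks listed in scramble KD replicate 1, 385 (5.26%) shared 1 bp or more with a peak of scramble KD replicate 2 and are described here as the replicated control sites. Seen from the other side, 388 of the 13652 peaks of replicate 2 (2.84%) overlapped a replicate 1 peak. The sites were therefore chosen by measured ATRX peaks, and their ATRX values in the scramble KD lists are a description with no test. The cells were mouse 16.7 embryonic stem cells, a female hybrid line (CAST/Ei x 129/Sv/Jae) grown with LIF and, per the methods of the study, freed of feeder cells before transfection. One condition received scramble LNA gapmers (scramble KD) and the other LNA gapmers against TERRA (TERRA KD), each for 12 h. ATRX, H3K9me3, DNA G-quadruplexes (G4, captured with the BG4 antibody) and open chromatin (ATAC-seq) were each profiled in 2 scramble KD and 2 TERRA KD libraries, 16 peak lists in all. TERRA itself was not measured in these lists, so the depletion is not checked here. The lists came from 2961038 to 24588605 tags per library, and each sample was a bulk culture, in which fewer cells with a peak and less signal per cell cannot be told apart.

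ATRX is a chromatin remodeler that works with DAXX to deposit the histone variant H3.3 at telomeres, pericentric repeats and silenced retroelements, where H3K9me3 is the usual neighbouring mark. TERRA is a telomeric repeat-containing RNA, transcribed from subtelomeres towards the chromosome ends, and carries the UUAGGG hexamer. Runs of guanines in this repeat can fold into a G4, a folded DNA structure that ATRX is known to be associated with. Tracts of TTAGGG also lie inside chromosome arms, far from the ends, and are called interstitial telomeric sequences.

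Among the best-ranked replicated sites were some with a tandem array at the summit. Of these, 2 are shown first because their median 31-base word occurs once in the genome although the sequence at the summit repeats. The windows of 180 bases at the ATRX summit were read from the RefSeq copy of GRCm38, plus strand. Every other stretch of 1 period (31 and 22 bases) is in capitals. The site with the most ATRX tags, which had no such period, follows with no capitals.
Site over Asmt, chrX:170673329-170673508: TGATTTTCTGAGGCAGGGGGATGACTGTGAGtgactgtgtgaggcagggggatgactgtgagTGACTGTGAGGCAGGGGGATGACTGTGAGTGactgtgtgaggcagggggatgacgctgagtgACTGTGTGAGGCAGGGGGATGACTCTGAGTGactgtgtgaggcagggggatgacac
Intergenic site near Vmn1r77, chr7:12010404-12010583: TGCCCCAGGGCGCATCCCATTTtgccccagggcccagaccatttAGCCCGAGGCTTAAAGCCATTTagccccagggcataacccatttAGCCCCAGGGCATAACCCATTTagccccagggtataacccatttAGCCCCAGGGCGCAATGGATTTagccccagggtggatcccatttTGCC
Intergenic site near Ccr1, chr9:123928567-123928746: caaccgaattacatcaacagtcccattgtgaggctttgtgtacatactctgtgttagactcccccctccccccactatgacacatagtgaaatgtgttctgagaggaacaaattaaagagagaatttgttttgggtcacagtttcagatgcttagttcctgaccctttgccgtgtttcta

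The replicated sites were split by sequence, which the rule did not use. A telomeric tract, meaning 4 or more uninterrupted TTAGGG copies whichever the strand, lay under 98 sites (25.5%), against 131 (1.79%) of all 7321 peaks. Of those 131 peaks, 98 (74.8%) were thus replicated. Repeated sequence without such a tract made up 207 sites, where the median 31-base word of the peak occurred more than once in the genome. Including 7 tract sites, repeated words were found at 214 sites (55.6%) and at 27.3% of all peaks. Single-copy words without a tract made up 72 sites, 1.39% of the 5172 peaks of that kind in the list. The last 8 sites lay on unplaced contigs, which were not matched to the annotation here and have no sequence values.

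Few replicated sites lay near promoters, at a share near that of the whole list. Within 1 kb of the start of a curated RefSeq transcript (TSS) were 9 sites (2.34%, 95% Wilson interval 1.23 to 4.38%), and the share of all peaks, 3.58%, lies inside that interval. By their centre, 246 sites (63.9%) were intergenic and 118 (30.6%) intronic, against 58.3% and 36.3% of all peaks. The median distance to a TSS was 43696 bp for the sites and 41291 bp for all peaks. They were longer than the list as a whole, with a median of 641 bp against 432 bp, and held more tags, 19 against 6. A median of 68.6% of their bases was soft-masked as repeat in the reference, against 29.6%. Every chromosome held replicated sites, from 9 on chromosome 11 to 29 on chromosome 1. Chromosomes 6 and 8 held 12.6% and 11.01% of all peaks of the list and 6.75% of the replicated sites each, whereas chromosome Y held 0.656% of all peaks and 5.71% of the sites.

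In both scramble KD lists the replicated sites included the strongest peaks. All of the top 10 peaks of replicate 1 were replicated, as were 73 of the top 100 and 232 of the top 1000. Ranked by the p of the peak, 208 sites (54.0%) stood in the top 10% of the replicate 1 list, 198 (51.4%) in the top 10% of replicate 2, and 138 (35.8%) in both, while 29 (7.53%) ranked below 50% of both lists. The summits of both replicates lay a median of 61 bp apart, and 235 sites (61.0%) had them within 100 bp. At the edge of the rule, the shortest overlaps were 1, 7, 7 and 13 bp, at sites of 7 to 13 tags near Btbd35f12, Grap, Gm46840 and Ing1. Just outside it, peaks near Arl14, Sult1c1, Ank and Prl2c2 missed a replicate 2 peak by 10, 12, 14 and 17 bp, with 10 to 32 tags. None of the sites had a deposited false discovery rate of at most 5% in either list (lowest 14.29%), and neither did any other peak of these lists. That rate is estimated from peaks called after exchange of ChIP and input.

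Tags at telomeric-tract sites varied widely within each ATRX library. The 98 sites held 10 to 673 tags in scramble KD replicate 1 (median 38.5), 9 to 320 in replicate 2 (26.5), 19 to 1325 in TERRA KD replicate 1 (60) and, for the 94 listed there, 10 to 211 in TERRA KD replicate 2 (28.5). These counts are not scaled to depth and were not compared between libraries. Their ranks in the scramble KD lists reached down to 91.97% and 73.4%, and their median rank in the list was at the top 2.34%, 0.736%, 0.284% and 0.995% of the peaks, in the same order. The site of the highest hexamer count, 75 copies on chromosome 13, held 211, 111, 336 and 134 tags in that order. The site on chromosome 3 with 57 copies held 301, 204, 424 and 211, and the intronic site of Ppp1r9a, which encodes the actin-binding protein neurabin, held 282, 149, 422 and 172 with 55 copies. Across the 98 sites, the number of copies and the tags went together (Spearman's rho 0.75 in scramble KD replicate 1 and 0.70 in replicate 2), which is a description over sites that share libraries and hexamers. Copies were counted over the whole replicate 1 peak, so a longer peak can hold more of them. The part of peak length was not tested, and the tags come from the lists that chose the sites.

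The tract sites were interstitial. They lay on 21 chromosomes, at a median of 28624000 bp from the nearer end of the sequenced chromosome, and only 2 were within 1 Mb of an end. Of the 98, 60 were intergenic and 36 intronic, and none was within 1 kb of a TSS. Their longest uninterrupted run had a median of 10 copies (4 to 18). In 91 of them the median 31-base word was unique to the site, so the flanks can place a read. The tract itself cannot always do so, since 31-base words made of the hexamer alone occur in 249 tracts of the reference, and reads of this kind could not be told apart by origin here. Longer tracts were more often under a replicated site: 28 of 113 tracts with 4 or 5 copies (24.8%), 27 of 71 with 6 or 7 (38.0%), 36 of 68 with 8 or 9 (52.9%) and 60 of 110 with 10 or more (54.5%). These 151 tracts lay under 98 sites, 73 of them with 1 tract only. Any ATRX peak of scramble KD replicate 1 lay on 46.0%, 52.1%, 72.1% and 58.2% of the tracts in that order. For scramble KD replicate 2 the shares were 29.2%, 43.7%, 58.8% and 68.2%.

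**Figure D1:**
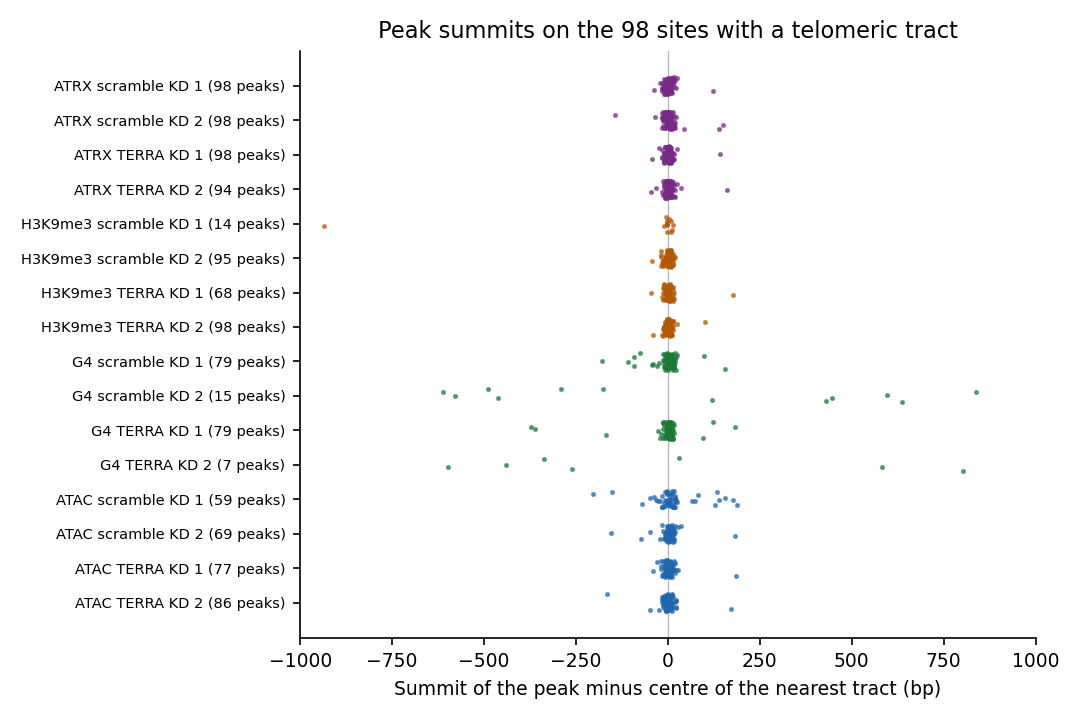
Distance from the centre of the nearest telomeric tract to the summit of the overlapping peak at the 98 tract sites, 1 row per list and 1 point per site with a peak there (1000 bp shown to each side, with up to 3 peaks per list beyond it, points spread vertically at random within a row). In the ATRX, H3K9me3 and ATAC lists and in both replicate 1 lists of G4 the summits stack at the tract, whereas the few peaks of G4 replicate 2 have theirs away from it, at medians of 579.5 and 439.5 bp.

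Peaks of all 4 assays were centred on the tract. In scramble KD replicate 1, 95 of the 98 ATRX summits fell inside the tract, and the median distance to its centre was 6.5 bp, with 7.5, 5.0 and 5.5 bp in scramble KD replicate 2, TERRA KD replicate 1 and TERRA KD replicate 2. For H3K9me3 the median was 5.5 to 7.0 bp over the 4 lists, and for ATAC 6.0 to 15.5 bp. For G4 it was 7.5 and 6.5 bp in the replicate 1 lists of scramble KD and TERRA KD. In the replicate 2 lists of G4, 15 and 7 tract sites had a peak, with median distances of 579.5 and 439.5 bp. ATAC peaks were called without input, and the part of mapping to repeated letters in this shared position was not tested.

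All but 77 of the replicated sites had an ATRX peak in at least 1 TERRA KD list, and nearly all tract sites had one in both. TERRA KD replicate 1 listed a peak at 306 of the 385 sites (79.5%, 95% Wilson interval 75.2 to 83.2%), against 17.5% of all 7321 peaks. TERRA KD replicate 2 listed one at 186 (48.3%, 43.4 to 53.3%), against 7.44%. Both lists held 184 sites (47.8%), against 5.87% of all peaks, 122 were in replicate 1 only, 2 in replicate 2 only and 77 (20%) in neither. The TERRA KD lists differed in length, with 41384 and 21718 peaks from 4104486 and 14878010 tags. The intervals cover counting error only, over sites that can share a sequence family or a TERRA KD peak.

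The share of sites kept differed by class of sequence. Of the 98 tract sites, 98 had a peak in TERRA KD replicate 1 and 94 in replicate 2. Among the 207 repeated-word sites these were 168 (81.2%) and 75 (36.2%), and among the 72 single-copy sites 33 (45.8%) and 15 (20.8%). None of the 77 sites found in neither TERRA KD list carried a tract: 38 were repeated, 38 single-copy and 1 on a contig. The peaks of the list that were not replicated had lower shares in 5 of these 6 cases, with 100% and 48.5% for the 33 other tract peaks, 41.3% and 14.0% for the 1780 repeated ones and 3.84% and 1.73% for the 5100 single-copy ones. Sites kept in both lists stood at a median of the top 2.68% in scramble KD replicate 1, and those kept in neither at 47.1%, and ATRX rank thus moved with the share kept. In the top 10% of the replicate 1 list, 96.2% and 65.4% of the 208 replicated sites had a peak in TERRA KD replicates 1 and 2, against 59.2% and 22.1% of the 524 other peaks. Tracts lay under 80 of the former and 14 of the latter.

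**Figure D2:**
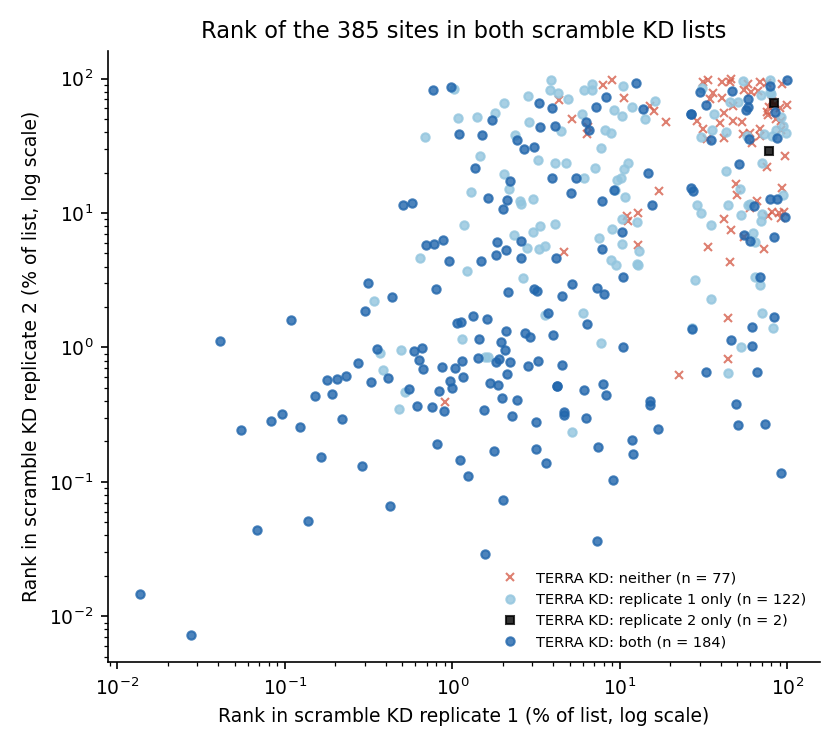
Rank of each of the 385 sites by p in scramble KD replicate 1 (x) and replicate 2 (y), in percent of the list on log scales, where small values are the strongest peaks; the marker gives the TERRA KD lists that hold the site. Sites kept in both lists (184) predominate at the lower left, and most of the 77 kept in neither lie at the upper right.

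Over all replicated sites the median was 19 tags in scramble KD replicate 1 and 16 in replicate 2. The 10 best-ranked sites kept in neither TERRA KD list held 5 to 87 tags in scramble KD replicate 1 and 11 to 163 in replicate 2. The one with the most tags, at chr13:58177229-58177913 in an untranslated or noncoding exon of Ubqln1, whose product carries ubiquitinated proteins to the proteasome, held 87 and 163 tags. The best ranked, at chr10:72297038-72297543, held 33 and 36 and lay in sequence whose median word occurs 3185 times. Others lay in introns of Frmd3, of the urinary protein gene Mup18 and of the P450 pseudogene Cyp2c53-ps, and near Gm6600, Agpat5, Gm7762, Olfr441 and Cyp2c50. Missing in a list, a site had no enrichment detectable at the depth of that library.

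**Figure D3:**
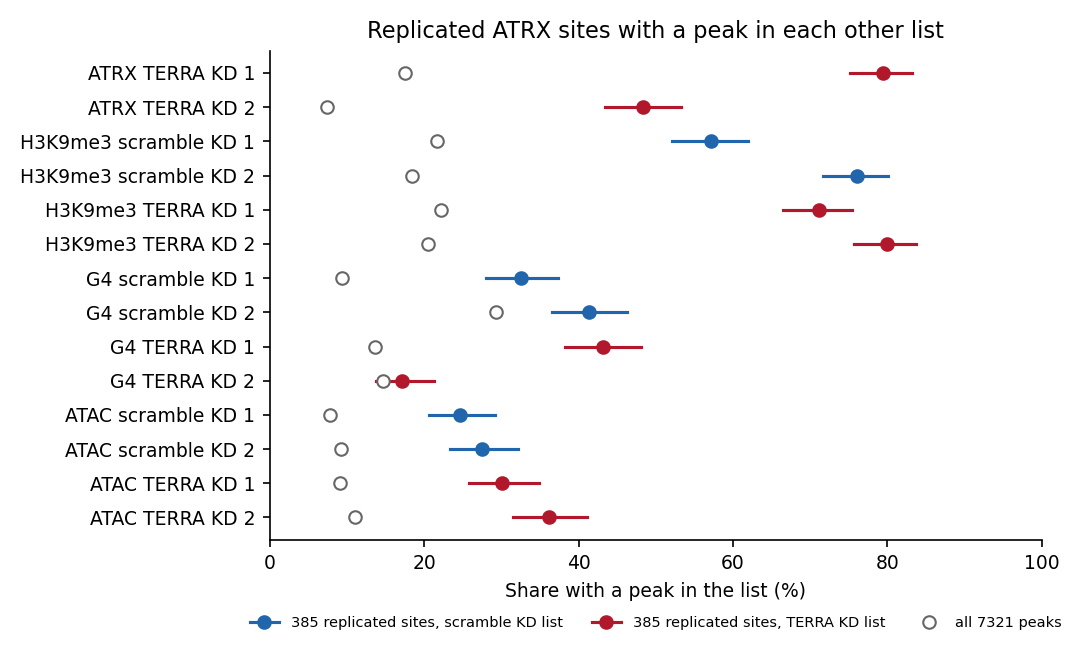
Share of the 385 replicated sites with a peak in each other list (filled points with 95% Wilson intervals, blue for scramble KD and red for TERRA KD), beside the share of all 7321 peaks of the list (open points). Filled points lie above open ones in all 14 lists, by little in G4 TERRA KD replicate 2. The 2 sets of points are not matched for ATRX rank. Within the top 10% of the replicate 1 list, both replicate 2 lists of G4 had the opposite order.

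H3K9me3 was the most frequent mark on the replicated sites. A peak was listed at 220 sites (57.1%) in scramble KD replicate 1 and 293 (76.1%) in replicate 2, against 21.6% and 18.4% of all peaks. After TERRA KD it was listed at 274 (71.2%) and 308 (80%), against 22.2% and 20.5%. These shares are not matched for ATRX rank. In the top 10% of the replicate 1 ATRX list, scramble KD replicate 1 had H3K9me3 on 56.7% of the 208 replicated sites and 56.3% of the 524 other peaks. In scramble KD replicate 2 these were 85.6% and 49.0%, and in TERRA KD replicates 77.4% and 56.5%, then 91.3% and 55.0%. Over all 385 sites, 186 (48.3%) had a peak in all 4 lists and 55 in none. The mean was 66.6 ± 13.4% (SD, n = 2) in scramble KD and 75.6 ± 6.24% in TERRA KD, a difference of 8.96 percentage points that did not exceed the spread between replicates (two-sided exact permutation test over 4 libraries, p = 0.667, where 0.33 is the smallest p such a design allows). Without scramble KD replicate 1 the difference was −0.52 points. The labels do not say whether replicates were separate cultures, so p measures only the spread between these libraries. The paper describes its ATRX and G4 ChIP-seq replicates as biological and highly correlated. ATRX and H3K9me3 of the same condition and number were called against the same input, so these lists share that library with the rule.

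Telomeric tracts were the class in which the H3K9me3 lists disagreed. Scramble KD replicate 1 listed a peak at 14 of the 98 tract sites (14.3%) and TERRA KD replicate 1 at 68 (69.4%), with 56 sites listed in TERRA KD alone and 2 in scramble KD alone. In replicate 2 the numbers were 95 (96.9%) and 98 (100%). The low value stood in 1 library, scramble KD replicate 1, which held 12090614 tags and 26414 peaks with a median length of 2404 bp. TERRA KD replicate 1 held 13898785 tags and 25490 peaks with a median length of 3119.5 bp. Both replicate 2 lists held more and shorter peaks (76213 of 491 bp and 74925 of 515 bp). The part of depth and peak length in these shares was not tested. Outside the tracts the shares lay close together, with 71.8% and 69.0% in the scramble KD lists, compared with 71.8% and 73.2% after TERRA KD, a difference of 2.09 points (p = 0.667, same exact permutation test). Over the 362 tracts of the genome, scramble KD replicates 1 and 2 had H3K9me3 peaks on 24 and 208, and TERRA KD replicates on 125 and 223.

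One sequence family held 93 of the 207 repeated sites (44.9%). When the 300 bp at the summits were aligned to each other (at least 100 bp at 80% identity), 226 of the 377 sites with sequence (59.9%) matched another site, and the largest group held 93 sites on 21 chromosomes. Its members were 74 intergenic and 19 intronic sites, with a median word occurring 304 times, and 62 of them were soft-masked from end to end. ATRX tags were 6 to 66 in scramble KD replicate 1 (median 17) and 9 to 42 in replicate 2 (14). H3K9me3 lay on 97.8% of them in both scramble KD replicates and on 98.9% and 100% in TERRA KD. ATRX peaks remained listed at 98.9% in TERRA KD replicate 1 and 37.6% in replicate 2, and ATAC peaks lay on 1.08% to 10.8%. No file used here names the family. The second group, of 60 sites, was formed by 57 tract sites and 3 others.

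**Figure D4:**
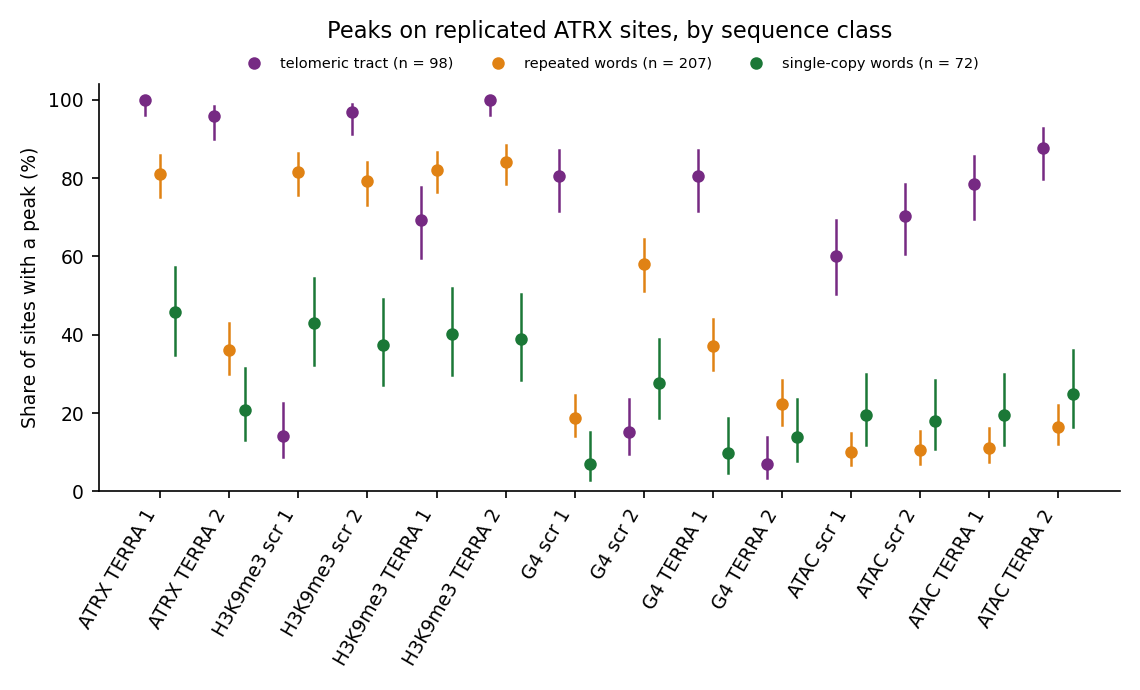
Share of sites with a peak in each list for telomeric-tract (98), repeated-word (207) and single-copy (72) sites, with 95% Wilson intervals (counting error only). Tract sites lead in ATRX, ATAC and the replicate 1 lists of G4, are low in H3K9me3 scramble KD replicate 1 (14.3%) and in both replicate 2 lists of G4, and the repeated sites lead in G4 replicate 2.

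The share of sites with a G4 peak varied from list to list, with no common direction between conditions. Scramble KD replicates 1 and 2 listed them at 125 (32.5%) and 159 (41.3%) of the sites, TERRA KD replicates at 166 (43.1%) and 66 (17.1%), against 9.37%, 29.3%, 13.6% and 14.7% of all peaks. In TERRA KD replicate 2 the share was thus near that of all peaks (interval 13.7 to 21.2%). The means were 36.9 ± 6.24% and 30.1 ± 18.4% (SD, n = 2), and the difference of −6.75 points had p = 1.00 in the same exact permutation test. By number, TERRA KD was 10.6 points higher in replicate 1 and 24.2 points lower in replicate 2, and without TERRA KD replicate 2 the difference was 6.23 points. Both replicates of a condition shared their input. G4 depth moved the same way, with 2961038 tags in scramble KD and 5759282 in TERRA KD for replicate 1, and 24588605 and 13127555 for replicate 2, and its part was not tested. On tract sites G4 peaks were listed at 79 of 98 in both replicate 1 lists, at 15 in scramble KD replicate 2 and at 7 in TERRA KD replicate 2. In the top 10% of the replicate 1 ATRX list, G4 replicate 1 shares were higher on the 208 replicated sites than on the 524 other peaks. They were 45.7% against 14.5% in scramble KD and 57.7% against 25.4% in TERRA KD. In the replicate 2 lists they were lower, at 43.3% against 47.3% and 17.3% against 19.5%. The G4 motif, 4 runs of 3 or more guanines on either strand with loops of up to 7 bases, was present in all tract sites by the definition of the tract, and in 19 repeated and 13 single-copy sites, together 34.5% of the sites with sequence against 7.53% of all such peaks.

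ATAC peaks lay mainly on tract sites. Scramble KD replicates listed them at 95 (24.7%) and 106 (27.5%) sites, TERRA KD replicates at 116 (30.1%) and 139 (36.1%), against 7.79%, 9.21%, 9.07% and 11.1% of all peaks. Both TERRA KD libraries were above both scramble KD libraries. The difference of the means, 26.1 ± 2.02% and 33.1 ± 4.22% (SD, n = 2), was 7.01 points, with p = 0.33, the smallest the exact permutation test can give. On tract sites the peaks numbered 59 and 69 of 98 in the scramble KD lists, compared with 77 and 86 after TERRA KD, a difference of 17.9 points, against 3.31 for the remaining sites. ATAC depth was also higher in TERRA KD, at 6615112 against 5976014 tags for replicate 1 and 7883648 against 7499296 for replicate 2. When the longer list of each replicate was cut by rank to the length of the shorter, the difference over all sites was 5.71 points. ATAC peaks lay within 1 kb of the TSS of 8 of 10 embryonic stem cell marker genes in all 4 lists, and also of 6 of 10 feeder fibroblast genes, so these promoters do not tell the cell types apart.

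Peaks in both scramble KD lists of an assay were found at 197 sites for H3K9me3 (51.2%, against 15.2% of all peaks), 47 for G4 (12.2%, against 5.85%) and 84 for ATAC (21.8%, against 6.57%). All 3 marks met at 10 sites, and 123 sites had none of the 3 marks in both lists. The largest combination, H3K9me3 alone in both lists, held 149 sites, 123 of them repeated. ATAC alone held 50 sites, 47 of them with a tract. Of the 84 sites with ATAC in both scramble KD lists, 77 (91.7%) kept ATRX in both TERRA KD lists, compared with 83 of 268 (30.97%) without ATAC in either. The same shares were 86 of 197 (43.7%) and 9 of 69 (13.04%) for H3K9me3, and 34 of 47 (72.3%) and 43 of 148 (29.1%) for G4. Over all sites the share kept in both lists was 47.8%, and over all peaks of the replicate 1 list 5.87%. Tract sites, frequent among those with ATAC, were kept at 95.9%. The part of each mark apart from sequence class and rank was not tested.

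The 12 best-ranked sites stood in the top 0.926% by p in all 4 ATRX lists and lay in a few clusters. On chromosome 9, 3 sites between 123924392 and 123937566, 31126 bp or more from the TSS of the chemokine receptor gene Ccr1, made up 1 locus. The longest of them, at chr9:123927409-123934442, held 1050 tags in scramble KD replicate 1, 860 in replicate 2, 2693 in TERRA KD replicate 1 and 891 in replicate 2. Its fold enrichment over input was 16.11, 2.61, 36.07 and 2.47 in that order. The medians over all peaks of scramble KD replicates 1 and 2 were 15.92 and 4.13, so its many tags in replicate 2 came with a low fold. H3K9me3 was listed in all 4 libraries at all 3 sites. On contig GL456216, assigned to chromosome 4, 2 sites held 146 and 114 tags in scramble KD replicate 1 and had H3K9me3 and G4 in all 4 lists and ATAC in none. Another of the 12, at chrX:170672688-170677938, covered most of Asmt, which encodes the last enzyme of melatonin synthesis, and held 272, 92, 420 and 121 tags in the same order. The 300 bp at its summit matched themselves at 86.2% of positions with a period of 31 bases, and the site had H3K9me3 and G4 in all 4 lists.

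Chromosome Y held 22 replicated sites, although the line is described as XX in the methods of the study. Of these, 18 formed 2 clusters at chrY:90733974-90743819 and chrY:90783690-90826688, the second over and beside Erdr1, which is annotated as a transcribed pseudogene and lies in the pseudoautosomal region. The second cluster included the site at chrY:90810135-90814021 with 673, 320, 1325 and 181 tags. Most of the sequence of these sites was not that of chromosome X in the reference. A median of 6.88% of their 31-base words also occurred on X, and 3 of the 22 sites had 90% or more there. Those included the Erdr1 TSS at chrY:90783690-90786320, with 221, 124, 249 and 137 tags, and its counterpart at chrX:170008881-170011642 held 214, 115, 240 and 136, so the 2 cannot be told apart. Of the 22 sites, 18 kept ATRX in both TERRA KD lists. What the reads on chromosome Y come from was not tested, and on autosomes and X alone a mean of 62.4% of the sites was kept in TERRA KD, against 63.9% with all sites.

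Few genes carried replicated sites at their start. Besides both Erdr1 copies and Asmt, a site at chr7:7277460-7279206 covered the TSS of the pheromone receptor gene Vmn2r29, with 164, 98, 340 and 116 tags and H3K9me3, G4 and ATAC in all 4 lists each. Over the TSS of Disp3, a member of the Dispatched family, a site held 11, 10, 15 and 11 tags, with ATAC in all 4 lists and H3K9me3 in none. A site 322 bp from Mir7217 held 66, 23, 42 and 30 tags. Near Vmn1r88 16, 10 and 6 tags were listed and no peak in TERRA KD replicate 2, and the sites at Olfr460 (10 and 10 tags) and Vmn1r7 (6 and 18) were in neither TERRA KD list. Genes with 2 or more sites were Erdr1 (7 on Y, 2 on X), Vmn2r29, Hs6st3, Ppp1r9a, Zfp180 and Mid1, with 2 each. In Hs6st3, a heparan sulfate sulfotransferase gene, an intronic tract site held 46, 32, 65 and 45 tags. In Mid1, a ubiquitin ligase gene that reaches into the pseudoautosomal region, both sites overlapped the same replicate 2 peak of 146 tags and the same TERRA KD replicate 1 peak of 316 tags, and had none in TERRA KD replicate 2.

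Gene lists were counted beside the 123 of 26182 curated genes (0.470%) with a replicated site over the body or within 1 kb of the TSS. No such site was found for 27 imprinted genes, 10 genes of the alpha-globin locus, 58 clustered protocadherins, 12 pluripotency genes, 8 two-cell stage genes, 8 germline genes or 14 genes of the ATRX-DAXX complex and H3K9 methylation. Beside that background share, a count of 0 is not a result about lists of this length. Among the protocadherins, 33 of 58 genes held some peak of the replicate 1 list, against 9.58% of all genes, but none of it was replicated. Genes were counted here, not peaks, so a peak where gene bodies overlap counts for each of them. The number of separate peaks was not examined. Of 403 zinc finger genes, 4 (0.993%) held a site, namely Zfp180, Zfp987 and, with 1 site in common, Zfp978 and Zfp988. The sites of the last 3 genes had repeated words, and near-identical copies may share their reads. Of 1482 olfactory and vomeronasal receptor genes, 5 (0.337%) did, Olfr460, Vmn1r7, Vmn1r88, Vmn2r29 and Vmn2r77. The site within Vmn2r77 was a telomeric tract with 14, 14, 32 and 16 tags. Mid1, which the study shows as a subtelomeric gene, and both copies of Erdr1, which it measured by RT-qPCR, held sites, which is no independent evidence since they were taken from the study of this series.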

How the data were processed

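ATRX, H3K9me3 and G4 ChIP-seq and ATAC-seq peaks of 16 libraries were used as the authors deposited them. According to the methods of the study and the processing notes, reads were trimmed with Trim Galore 0.5.0, aligned to mm10 with Bowtie2 2.3.4.1 and freed of duplicates with SAMtools 1.9, and peaks were called in each library by MACS 1.4.3 (ATRX, H3K9me3), 1.4.2 (G4) or 2.2.7.1 (ATAC) at p 0.01, against input except for ATAC. The deposited ATRX, H3K9me3 and G4 columns hold the tag count of the peak, −10log10 p as a score, the fold enrichment and the false discovery rate in percent. The deposited ATAC columns hold the pileup signal, −log10 p, −log10 q and the fold enrichment. No column belonged to other samples (0).

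Peaks shared at least 1 base to overlap. Shares were compared between conditions over libraries by a two-sided exact permutation test of the mean difference, 2 against 2. Sequence, 31-base words and TTAGGG tracts were read from GRCm38.p6 (RefSeq), and genes from its curated transcripts (45756). Sites were aligned to each other with blastn 2.17.0. Python 3.11.15, pandas 2.3.3, numpy 2.4.6 and scipy 1.17.1 were used, and the overlap and word counts were tested on simulated data. Named sites were the best ranked by their worse rank, those within 1 kb of a TSS, those with most TTAGGG copies, the best ranked kept in both or neither TERRA KD list, the shortest overlaps, and genes with 2 or more sites or from the gene lists. The site near Vmn1r77 fell outside this rule and was chosen after its values were seen. The sequences of the telomeric-tract sites are not reported here. The sites and gene lists were chosen with earlier results of these data known, and alternatives with or without tract sites or by the summit base were chosen after seeing the data. Depth limits what a missing peak shows, and read counts between peaks were not used here.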

Additional observations from a re-analysis of the deposited data

How the results depend on the processing

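Leaving out 1 library at a time moved the TERRA KD minus scramble KD difference from −0.52 to 18.4 points for H3K9me3, from −19.7 to 6.23 for G4 and from 4.03 to 10 for ATAC. The sign turned for H3K9me3 without scramble KD replicate 1 (−0.52) and for G4 without TERRA KD replicate 2 (6.23), and the share of sites kept in TERRA KD went from 48.3% to 79.5% around its mean of 63.9%. The cause was not tested. With the replicate block the differences stayed at 8.96, −6.75 and 7.01 points, with exact sign-flip p of 0.5, 1 and 0.5 (0.5 is the smallest that 2 pairs allow). Deviations of libraries with the same number correlated over the 385 sites with r of 0.26, 0.45 and −0.02, and with 2 pairs the numbers are not shown to pair the samples. Restricting the ATRX lists to −10log10 p of at least 50 left 68 sites, with 92.6% kept, 50% on a tract, 5.88% within 1 kb of a TSS and 29.4% in repeated words. An overlap of at least 50% of the replicate 1 peak put 30.4% on a tract, a TSS window of 5 kb gave 6.23%, words of 51 bases gave 48.8%, and tract sites alone were kept at 97.96%. Apart from these and the 2 changes of sign, the differences kept their direction and no p reached 0.05, which 2 libraries against 2 cannot reach. Differences of H3K9me3 lay at 2.09 points without tract sites and 29.1 on them. Peaks that are missing at this depth cannot be told from absent ones.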
